A study of Mus musculus and Homo sapiens
Mus musculus with 14 samples.

Results

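Glutamate reaches retinal neurons through ion channel receptors and through the metabotropic glutamate receptors (mGluRs), which signal through G proteins. The 6 genes described here are the mGluR genes Grm2, Grm3, Grm4, Grm5, Grm7 and Grm8. They were chosen by symbol, with mGluR6, the receptor of ON bipolar cells, left out, and all 6 were present among the 24460 genes of the layer table and the 18415 genes of the amacrine table. Counts came from Light-Seq, in which RNA is copied to cDNA inside a fixed section, light attaches a DNA barcode to the cDNA of outlined cells, and the barcoded cDNA is sequenced with unique molecular identifiers (UMIs), each of which stands for 1 captured molecule. The tissue was retina of wild-type CD1 IGS mice in the third postnatal week, with no treatment in any group. In 4 sections from 1 animal, separate barcodes marked the outer nuclear layer (ONL, photoreceptor cell bodies), the bipolar cell layer (BCL) and the ganglion cell layer (GCL), which gave 12 libraries. In 5 further sections, a few amacrine cells stained for tyrosine hydroxylase (TH+, the dopaminergic amacrine cells) and unstained neighbours (TH-) were outlined by hand and pooled within each section, which gave 10 libraries. Sections of 1 animal are technical replicates, so the p-values for the layers measure the spread between sections and not between animals, and the methods likewise speak of a single source animal, so the sections of the amacrine experiment are not separate animals either.

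The mGluRs fall into 3 groups. Group I (here Grm5) couples to Gq and phospholipase C, raises intracellular calcium and sits mostly postsynaptically. Group II (Grm2 and Grm3) and group III (Grm4, Grm7 and Grm8) couple to Gi/o, lower cAMP and often sit on axon terminals, where they reduce transmitter release. In the retina, mGluRs other than mGluR6 are known mainly from the processes of bipolar, amacrine and ganglion cells in the inner plexiform layer, and mGluR8 also from photoreceptor terminals.

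The receptors are related in sequence, so a stretch in which those of group III are most alike is shown first. Genome positions are those of GRCm39, with genes matched by Ensembl identifier to GENCODE vM39. Grm5 spans chr7:87233376-87784594 on the plus strand, Grm2 chr9:106520294-106533870 on the minus strand and Grm3 chr5:9534069-9776088 on the minus strand. Grm4 spans chr17:27641361-27740377 on the minus strand, Grm7 chr6:110622542-111544191 on the plus strand and Grm8 chr6:27275118-28135177 on the minus strand. Within group III, the 60 coding bases most alike in all 3 genes lie in coding exon 8 of each gene, and 46 of the 60 bases, in capitals, are identical in the 3. The Grm5 stretch nearest to that of Grm4 is given below them, with the 34 bases it shares with Grm4 in capitals.
Grm4, chr17:27653620-27653679, minus strand: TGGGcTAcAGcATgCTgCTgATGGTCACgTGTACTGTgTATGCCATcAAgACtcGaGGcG
Grm7, chr6:111335869-111335928, plus strand: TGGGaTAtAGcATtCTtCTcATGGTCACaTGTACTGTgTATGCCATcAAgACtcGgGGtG
Grm8, chr6:27363197-27363256, minus strand: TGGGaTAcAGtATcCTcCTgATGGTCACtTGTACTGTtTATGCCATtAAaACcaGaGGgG
Grm5, chr7:87723939-87723998, plus strand: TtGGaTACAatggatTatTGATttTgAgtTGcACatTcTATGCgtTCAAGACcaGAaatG

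Aligned over their coding sequences, Grm4 and Grm7 were identical at 69.1% of bases, Grm4 and Grm8 at 68.5%, Grm7 and Grm8 at 69.9%, and Grm2 and Grm3 at 67.6%. Grm5 was identical to the other 5 at 57.2% to 58.5% of bases. The longest exact run that any pair shared in coding sequence was 27 bases (Grm3 and Grm4), and no pair shared a stretch of 40 bases, the longest insert that was read, in any annotated exon. Shorter reads could be shared between members, and the authors discarded reads with several matches. Exons of other annotated genes cover 10.19% of the exon bases of Grm7, 6.71% of Grm2, 3.2% of Grm8 and 1.98% of Grm4, and none of Grm3 or Grm5, and reads there cannot be given to either gene with certainty. The study used featureCounts at its defaults, which ignore strand and leave reads over several genes unassigned.

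The layer libraries held 310228 to 801105 UMIs in the ONL, 193869 to 208437 in the BCL and 585655 to 785013 in the GCL, and the amacrine libraries 30317 to 87449 in TH+ and 134394 to 200344 in TH- cells. Levels are in CPM, the UMIs of a gene per 1000000 UMIs of its library. A single UMI was therefore worth 1.25 to 3.22 CPM in the ONL, 4.798 to 5.16 in the BCL, 1.27 to 1.71 in the GCL and 11.4 to 33.0 in TH+ cells. In 3 wells of mouse 3T3 fibroblasts measured by the same method, none of the 6 genes had a UMI among 540880, which allows a level of up to 5.55 CPM (3 UMIs of the total). The marker lists followed the layer labels: rod genes took 7.68% ± 0.64 of UMIs in the ONL (SD, n = 4) against 1.86% in the BCL and 0.71% in the GCL, bipolar genes 0.911% ± 0.057 in the BCL against 0.125% in the ONL and 0.0559% in the GCL, and ganglion genes 0.718% ± 0.038 in the GCL against 0.057% in the ONL and 0.0568% in the BCL. The BCL libraries also held Müller glia genes, at 0.770% ± 0.036, and the GCL libraries amacrine genes, at 0.164% ± 0.008. Th itself was at 303 to 660 CPM in the TH+ libraries and at 11.6 to 49.9 in the TH- libraries.

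Among the layers, Grm5 was highest in the BCL, whereas Grm2, Grm3, Grm4 and Grm8 were highest in the GCL. No member was called higher in the ONL than in another layer. Levels were tested with the quasi-likelihood test of edgeR on all 11324 genes that passed a low-count filter, with Benjamini-Hochberg adjustment over those genes, and a gene is called at an adjusted p under 0.05. All 6 members passed the filter in the layers. Log2 fold changes are on edgeR's scale (TMM), which stands above the plain CPM scale by 0.32 for the ONL against the BCL, by 0.16 for the ONL against the GCL, and below it by 0.17 for the BCL against the GCL. The filter asked for a level of at least 5.86 CPM in 4 libraries. Grm3 reached it in 4 GCL libraries and 1 BCL library, so it was tested only because it was high in the GCL, and its values against the GCL are given as a description.

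**Figure D1:**
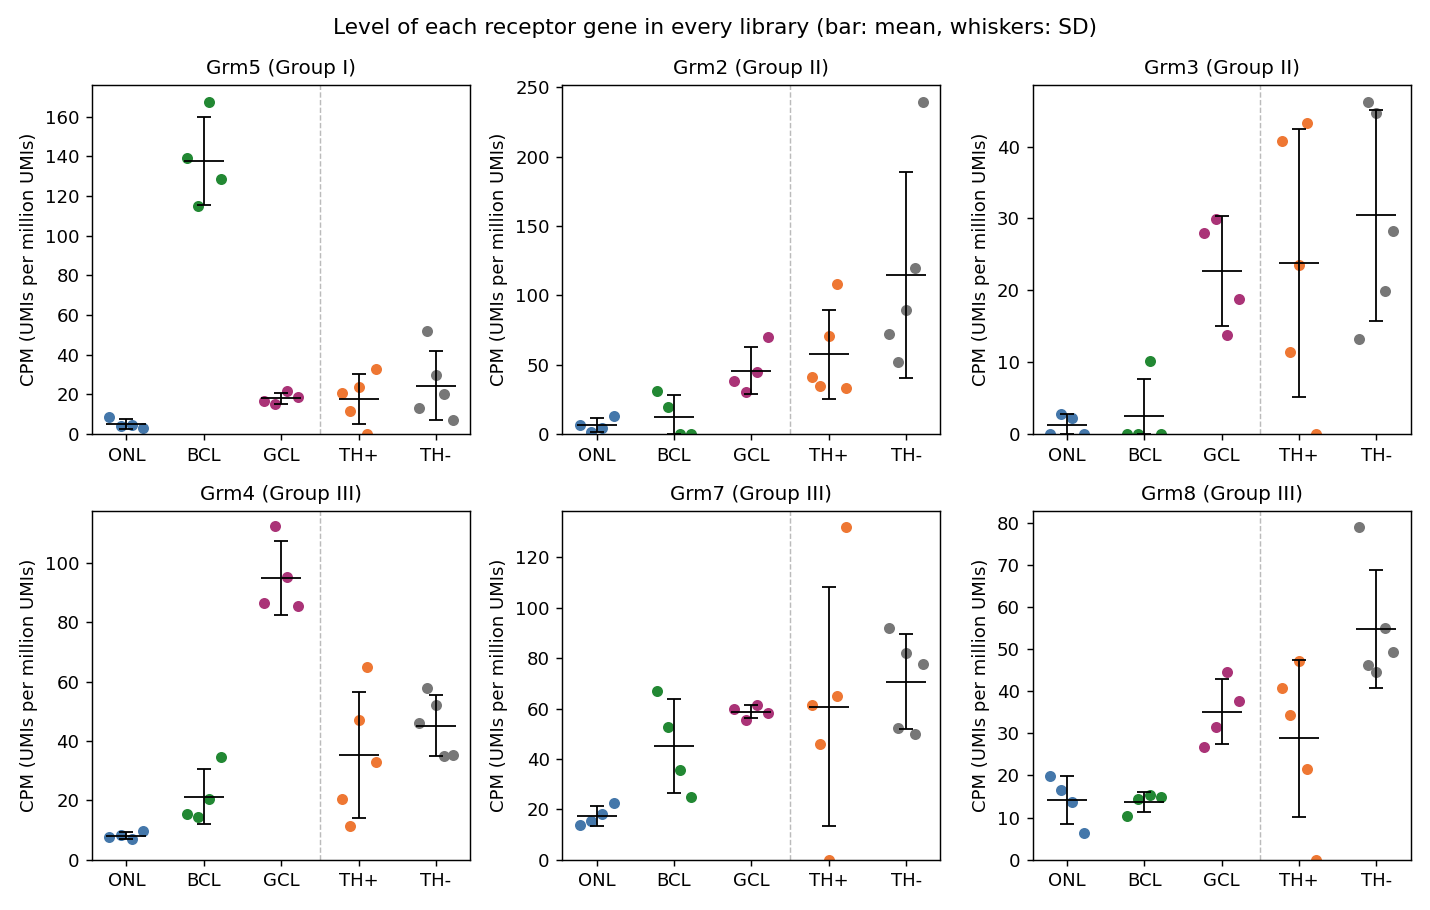
Level in CPM of each receptor gene (vertical axis, own scale per panel, from 0) in the libraries of the ONL, BCL, GCL, TH+ and TH- groups. Each point is 1 library, with sections in label order from left to right, the bar is the mean and the whiskers are the SD (n = 4 layer sections, n = 5 amacrine sections), and the dashed line separates the layer and the amacrine experiments. The 4 BCL libraries of Grm5 stand at 115 to 168, above every other library of that gene.

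Grm5 encodes mGluR5, the group I receptor that signals through Gq and is held at synapses by Homer proteins. In the BCL it stood at 139, 115, 168 and 129 CPM in sections 1 to 4, from 24 to 33 UMIs per library. In the GCL it stood at 16.6, 14.99, 21.5 and 18.8, and in the ONL at 8.74, 4.15, 4.57 and 3.22, where the 4 libraries held 13 UMIs together. The ranges of the 3 layers did not overlap. The BCL exceeded the GCL with a log2 fold change of 2.76 (SE 0.24, edgeR adjusted p = 6.21e-14), the ONL lay below the BCL at -4.19 (SE 0.32, edgeR adjusted p = 1.56e-16), and the ONL lay below the GCL at -1.44 (SE 0.40, edgeR adjusted p = 0.0017). In these bulk libraries, fewer cells that express a gene and less RNA per cell cannot be told apart. The BCL held the markers of bipolar cells and of Müller glia alike. Grm5 in the GCL was at 13.05% of its BCL level, where the summed bipolar markers were at 6.14% and the summed Müller glia markers at 22.1% of theirs. In the ONL, Grm5 was at 3.76% of its BCL level, the bipolar markers at 13.8% and the Müller glia markers at 12.7%. The part of each cell type in the Grm5 level was not tested.

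Among the 3 layers, the group II genes had their highest mean levels in the GCL. Grm2 encodes mGluR2, a presynaptic receptor that lowers transmitter release. It stood at 38.2, 30.0, 44.6 and 70.01 CPM in the GCL, at 30.9, 19.2, 0 and 0 in the BCL and at 6.24, 1.38, 4.57 and 12.9 in the ONL. Sections 1 and 2 of the BCL held all 10 of its BCL UMIs, and a library with 0 UMIs allows up to 15.2 CPM in section 3 and 14.8 in section 4 (3 UMIs). BCL and GCL ranges met, since section 1 of the BCL reached just above the lowest GCL library, and the ONL lay below the whole GCL range. The log2 fold change was -1.99 for the BCL against the GCL (SE 0.48, edgeR adjusted p = 5.87e-04) and -2.86 for the ONL against the GCL (SE 0.42, edgeR adjusted p = 3.99e-08). The first of these was called with any 1 section left out, but went to -2.97 without section 1 and to -1.36 without section 4. Between the ONL and the BCL, Grm2 was not called, at -0.87 with a 95% interval from its SE of -2.29 to 0.56 (edgeR adjusted p = 0.388), and it ran from -0.12 without section 1 to -1.60 without section 4.

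Grm3 encodes mGluR3, which acts in neurons and in glia. It stood at 28.0, 30.0, 13.8 and 18.8 CPM in the GCL, from 62 UMIs in all. The 4 ONL libraries held 3 UMIs together and the 4 BCL libraries 2, both of them in section 3, so that no ONL or BCL library had more than 2. Pooled over libraries, the GCL level was 17.5 times that of the ONL (exact 95% counting interval 5.71 to 87.0) and 9.24 times that of the BCL (2.45 to 78.0). Without section 3, the BCL had 0 UMIs of Grm3. Between the ONL and the BCL, where every library was under 3 UMIs, the data give no usable fold change. These intervals cover counting error only.

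The group III genes follow. Grm4 encodes mGluR4, a presynaptic receptor of many glutamatergic terminals. It stood at 86.6, 112, 95.3 and 85.4 CPM in the GCL, at 15.5, 14.4, 20.3 and 34.6 in the BCL and at 7.49, 8.30, 6.85 and 9.67 in the ONL. The 3 ranges did not overlap. GCL libraries exceeded BCL libraries in all 4 sections, with a log2 fold change of -2.31 for the BCL against the GCL (SE 0.29, edgeR adjusted p = 2.20e-09), and the ONL lay lower still, at -3.37 against the GCL (SE 0.26, edgeR adjusted p = 1.17e-16). Between the ONL and the BCL the value of -1.06 was not called (95% interval -1.98 to -0.13, edgeR adjusted p = 0.0735). In the BCL, Grm4 was at 22.3% of its GCL level, the summed amacrine markers at 46.4% and the summed ganglion markers at 7.91%. The part of these cells in the Grm4 level was not tested.

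Grm7 encodes mGluR7, a low-affinity receptor of the presynaptic active zone. Its levels were 59.9, 55.5, 61.5 and 58.1 CPM in the GCL, 67.1, 52.8, 35.6 and 24.7 in the BCL and 13.7, 15.2, 18.3 and 22.6 in the ONL. GCL libraries lay close together, with an SD of 2.59, and the BCL libraries spread over a range that took in the GCL values, with an SD of 18.7. The ONL lay below both, with a log2 fold change of -1.66 against the GCL (SE 0.25, edgeR adjusted p = 6.73e-08) and of -1.11 against the BCL (SE 0.34, edgeR adjusted p = 0.00742). That second call rested on 37 and 36 UMIs and was lost without section 1 (-0.75, edgeR adjusted p = 0.162) or without section 2 (-0.99, edgeR adjusted p = 0.0668). The BCL and the GCL were not told apart, at -0.55 with a 95% interval of -1.07 to -0.04 (edgeR adjusted p = 0.0979), and Grm7 was the 1 member that passed no test between these layers. Without section 1 that difference was called, at -0.80 (edgeR adjusted p = 0.0474).

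Grm8 encodes mGluR8, the group III receptor with high affinity for glutamate. Its levels were 26.8, 31.5, 44.6 and 37.6 CPM in the GCL, 10.3, 14.4, 15.2 and 14.8 in the BCL and 20.0, 16.6, 13.7 and 6.45 in the ONL. The GCL lay above both other layers without overlap, and the ONL and BCL ranges overlapped. The BCL held 11 UMIs in all, 2 or 3 per library. Log2 fold changes were -1.49 for the BCL against the GCL (SE 0.41, edgeR adjusted p = 0.00275) and -0.96 for the ONL against the GCL (SE 0.29, edgeR adjusted p = 0.00316). Grm8 was the 1 member with a positive value for the ONL against the BCL, at 0.53, which was not called (95% interval -0.41 to 1.47, edgeR adjusted p = 0.433).

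Leaving aside Grm3, which the filter let in through the GCL, 5 of 5 members were called higher in the GCL than in the ONL, where 32.2% of all genes tested were, and 0 were called higher in the ONL, where 29.3% were. Their median log2 fold change was -1.66, beside 0.00 over all genes. For the BCL against the GCL, 3 of the 5 were called higher in the GCL (20.4% of all genes) and 1, Grm5, higher in the BCL (16.1% of all genes). The median there was -1.49 over the 5 and -0.02 over all genes. For the ONL against the BCL, 2 of the 5, Grm5 and Grm7, were called higher in the BCL (18.2% of all genes) and 0 higher in the ONL (18.5% of all genes). The median was -1.06 over the 5 and 0.09 over all genes, and over all genes DESeq2 made 2064 calls on the BCL side and 1390 on the ONL side, where edgeR made 2056 and 2096. Each layer enters a pair of these comparisons, so they share libraries and are not independent of each other.

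**Figure D2:**
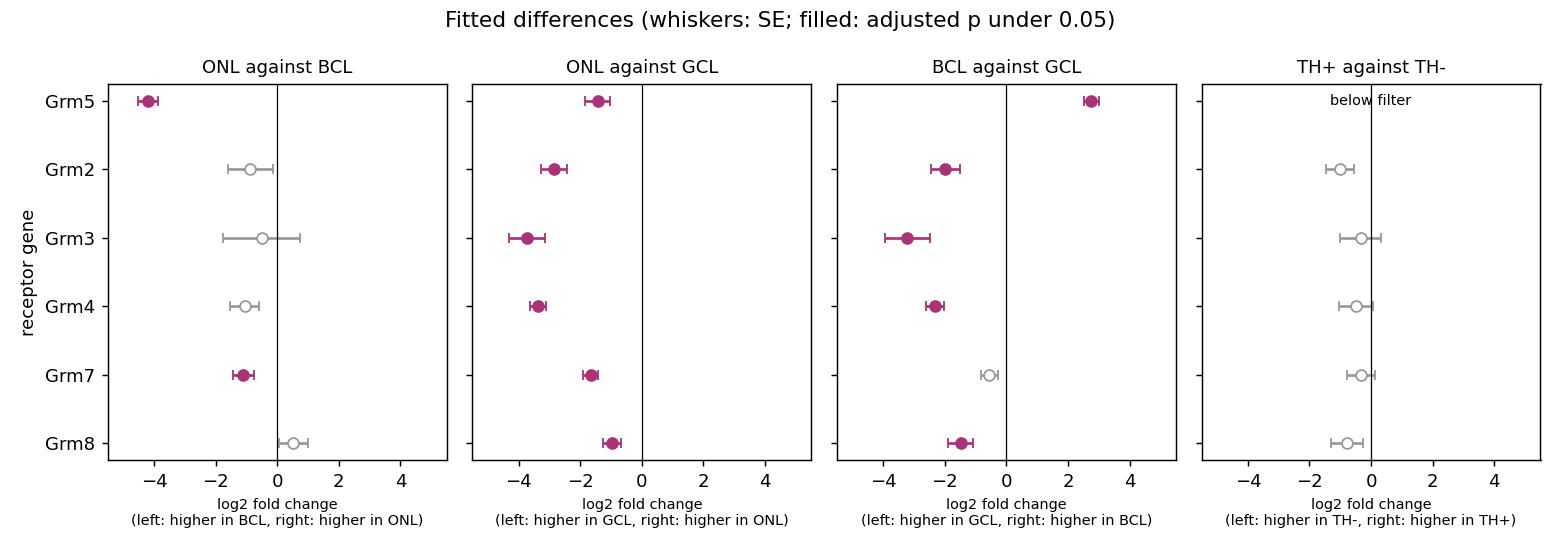
Log2 fold change (horizontal axis, edgeR) of each receptor gene in the 3 layer comparisons and in the amacrine comparison, with whiskers for the SE. Filled points have an adjusted p under 0.05: all 6 lie to the left for the ONL against the GCL, where Grm3 entered the test through the GCL, Grm5 alone lies to the right for the BCL against the GCL at 2.76, and no point is filled for TH+ against TH-, where Grm5 was below the low-count filter. The Grm3 point for the ONL against the BCL rests on at most 2 UMIs per library.

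Comparing levels between genes needs a correction for length, because random primers were used and longer transcripts give more UMIs. Levels were divided by the gene length in the deposited tables, which ran from 3.05 kb for Grm3 to 10.25 kb for Grm5, and are given as CPM per kb. In the BCL, Grm5 led at 13.4 ± 2.2 (SD, n = 4), followed by Grm7 at 7.65 ± 3.17 and Grm4 at 3.55 ± 1.56, and Grm2, Grm8 and Grm3 lay at 2.56 ± 3.12, 1.38 ± 0.23 and 0.833 ± 1.67. Within 1 SD, Grm7 overlapped with Grm4, Grm4 with Grm2, and the last 3 with each other. Without section 1, Grm2 in the BCL went from 12.5 to 6.40 CPM, and without section 3, Grm3 had none. Grm5 made up 45.7% of the family's summed level in that layer and 3.66% in the GCL. In the GCL, Grm4 led at 15.9 ± 2.1, followed by Grm7 at 9.98 ± 0.44, Grm2 at 9.34 ± 3.53, Grm3 at 7.43 ± 2.51, Grm8 at 3.55 ± 0.78 and Grm5 at 1.75 ± 0.28. Within that order, Grm7, Grm2 and Grm3 overlapped with each other within 1 SD. In the ONL, Grm7 led at 2.96 ± 0.66, and each of the other 5 overlapped with its neighbour in the order within 1 SD. Summed over the 6 genes, the per-kb level came to 47.9 ± 2.0 in the GCL, 29.4 ± 4.6 in the BCL and 7.95 ± 0.77 in the ONL. In the separate amacrine experiment the sum came to 60.9 ± 13.1 in TH- and 40.4 ± 12.8 in TH+ cells (SD, n = 5), with no test between experiments. The place of Grm3 depended on the length used, since its annotated exons in GENCODE vM39 add up to 6760 bases and not 3049. With that annotation, a choice made after the data were seen, Grm3 fell to 3.35 per kb in the GCL, below Grm8, and the leading gene stayed Grm7 in the ONL, Grm5 in the BCL and Grm4 in the GCL.

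**Figure D3:**
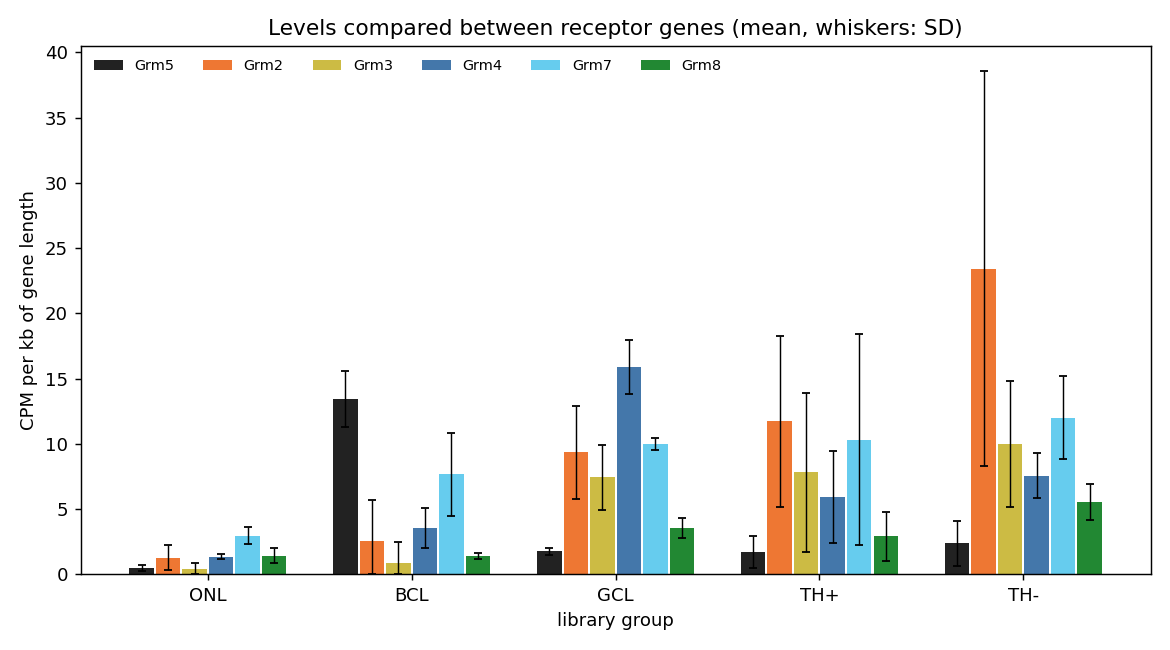
CPM per kb of gene length (vertical axis, from 0) for each receptor gene in each group, with bars for means and whiskers for the SD (n = 4 for ONL, BCL and GCL, n = 5 for TH+ and TH-). The tallest bar within a group is that of Grm5 in the BCL, at 13.4, that of Grm4 in the GCL, at 15.9, and that of Grm2 in the TH- cells, at 23.4.

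Amacrine cells release GABA, glycine or dopamine onto bipolar, amacrine and ganglion cells, and several of their types carry group II receptors. Between dopaminergic and other amacrine cells, no member was called in either direction. Of the 6 members, 5 passed the filter among 6021 genes tested, and 0 were called higher in TH+ cells (0.747% of all genes) or higher in TH- cells (0.083% of all genes). DESeq2 likewise called 0, and 1 member, Grm2, had an unadjusted edgeR p under 0.05, as did 533 of the 6021 genes. With the section as a block, calls over all genes went from 45 and 5 to 96 and 52, and those of members stayed at 0. All 5 fitted values were negative, with a median of -0.50 beside -0.05 over all genes. That median is the Grm4 value, which ran from -3.04e-04 without section 2 to -0.99 without section 4. The Grm7 value went from -0.32 to -0.0078 without section 3. The TH+ libraries were shallow, with 54 UMIs of the 6 genes against 269 in the TH- libraries. A p that misses the threshold here does not show that the cells have the same level, and the intervals below give the differences the data allow. Rod markers took 3.37% ± 1.06 of UMIs in the TH+ libraries and 1.94% ± 0.62 in the TH- libraries (SD, n = 5). Lower in the TH+ libraries were the Müller glia markers, at 0.384% ± 0.064 against 0.568% ± 0.104, the bipolar markers, at 0.130% ± 0.040 against 0.201% ± 0.103, and the amacrine markers, at 0.353% ± 0.056 against 0.435% ± 0.084. The part of these cells in the levels was not tested.

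Grm2 was the amacrine member with the most UMIs. It stood at 40.8, 34.3, 70.6, 108 and 33.0 CPM in the TH+ libraries, from 1 to 5 UMIs each, and at 72.3, 52.1, 89.3, 120 and 240 in the TH- libraries. TH- cells were higher in all 5 sections, but the ranges overlapped. The log2 fold change was -1.02 (95% interval -1.91 to -0.14, edgeR adjusted p = 0.456), and it ran from -0.52 without section 5 to -1.37 without section 4. Per kb, Grm2 led in the TH- cells at 23.4 ± 15.2 (SD, n = 5), and section 5 alone reached 49.0. Its spread in those cells took in Grm7 at 12.01 ± 3.18, and Grm2 also led in the TH+ cells, at 11.7 ± 6.6, where Grm7 stood at 10.3 ± 8.1 and led by the vM39 lengths.

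The other members lay between 0 and 4 UMIs in every TH+ library. Grm8 stood at 40.8, 34.3, 47.1, 21.6 and 0 CPM in TH+ cells and at 78.9, 46.3, 44.6, 54.9 and 49.3 in TH- cells, a log2 difference of -0.79 (95% interval -1.82 to 0.23, edgeR adjusted p = 0.734). Grm4 held 8 UMIs in TH+ and 36 in TH- cells (-0.50, 95% interval -1.57 to 0.57), Grm3 6 and 24 (-0.34, 95% interval -1.63 to 0.96), and Grm7 14 and 55 (-0.32, 95% interval -1.21 to 0.57). Grm7 had 0 UMIs in section 3 of the TH+ libraries, which allows up to 70.6 CPM, and 132 CPM in section 5, from 4 UMIs. Grm5 was below the filter, which here asked for at least 27.05 CPM in 5 libraries and which it reached in 3. It stood at 17.7 ± 12.5 CPM in TH+ and at 24.4 ± 17.6 in TH- cells (SD, n = 5), from 4 and 20 UMIs, and a two-sided exact permutation test gave p = 0.524, where 0.00794 is the smallest it can give. The amacrine cells lie next to the BCL, and the Grm5 level in TH- libraries of 7.05 to 52.1 CPM stayed below the BCL range of 115 to 168. Mean TH- levels stood above those of the GCL for Grm2 (115 against 45.7 CPM), Grm3 (30.4 against 22.7) and Grm5 (24.4 against 18.0). The same held for Grm7 (70.7 against 58.7) and Grm8 (54.8 against 35.1), whereas Grm4 stood below, at 45.2 against 94.9. The layer and amacrine libraries were separate experiments, so these levels are set side by side with no test.

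A hand-picked list of 42 signalling genes of these receptors, from G proteins to scaffolds and not the whole pathway, was compared in the same way. Of the 41 tested in the layers, 32 were called on the GCL side and 6 on the ONL side of that comparison, with a median log2 fold change of -1.97. Between the BCL and the GCL, 23 were called higher in the GCL and 6 higher in the BCL (median -0.78), and between the ONL and the BCL, 24 were called higher in the BCL and 5 higher in the ONL (median -1.02). The shares of all genes called are those given above for each direction. DESeq2 called 22 of the list between the BCL and the GCL, where edgeR called 29. It called as many as edgeR between the ONL and the GCL (38) and between the ONL and the BCL (29). With a section left out, edgeR called 24 to 26 between BCL and GCL, 38 between ONL and GCL and 24 to 28 between ONL and BCL. Of the 8 genes that link group I receptors to Gq, phospholipase C and calcium stores, 2 were called higher in the BCL and 5 higher in the GCL. The 7 adenylyl cyclases of the list held 6 genes called higher in the GCL than in the BCL and 0 higher in the BCL. All 3 GIRK channel genes of the list, whose channels Gi/o receptors open, were called lower in the ONL than in the GCL and in the BCL. Of these, 1 was called higher in the GCL than in the BCL.

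Among the Gi/o alpha subunits, Gnao1, the main Go subunit of neurons, stood at 1466 ± 35.7 CPM in the GCL, 1539 ± 57.9 in the BCL and 250 ± 65.0 in the ONL (SD, n = 4). It was called lower in the ONL than in the BCL (log2 fold change -2.29, edgeR adjusted p = 4.75e-21) and than in the GCL (-2.39, edgeR adjusted p = 2.01e-23). Gnai2 was highest in the BCL, at 594 ± 15.1 against 277 ± 24.5 in the GCL (0.93, edgeR adjusted p = 2.20e-09). The ONL stood at 75.8 ± 12.7 and lay below the BCL at -2.60 (edgeR adjusted p = 8.63e-22).

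Scaffolds went both ways. Ncdn, whose product norbin binds mGluR5, stood at 1181 ± 44.6 in the GCL, 323 ± 20.3 in the BCL and 202 ± 44.6 in the ONL, and the BCL lay below the GCL at -2.04 (edgeR adjusted p = 3.99e-19), the opposite direction from Grm5. Shank2, a postsynaptic scaffold that binds Homer, was higher in the BCL, at 409 ± 33.3 against 183 ± 32.8 in the GCL (1.0, edgeR adjusted p = 5.58e-08). Rgs4, which speeds the shutoff of Gq and Gi/o signals, stood at 256 ± 41.2 in the GCL and 27.5 ± 9.6 in the BCL (-3.37, edgeR adjusted p = 6.58e-17).

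The ONL led for a few partners. Elfn1, a membrane protein of photoreceptor terminals that binds group III receptors across the synaptic cleft, stood at 290 ± 17.4 CPM in the ONL, at 118 ± 20.3 in the GCL and at 72.1 ± 13.1 in the BCL. Which receptors it meets there was not tested, and mGluR6, the receptor of ON bipolar cells, was left out here. The log2 fold change of Elfn1 was 2.34 for the ONL against the BCL (edgeR adjusted p = 4.88e-16) and 1.45 for the ONL against the GCL (edgeR adjusted p = 4.28e-15). Its relative Elfn2, named after its values were seen, was lower in the ONL than in the BCL, at -1.86 (edgeR adjusted p = 2.24e-13). Of the adenylyl cyclases, Adcy1 was higher in the ONL than in the BCL, at 700 ± 37.4 against 255 ± 38.0 (1.79, edgeR adjusted p = 5.44e-17), and Adcy6 higher in the ONL than in the GCL, at 108 ± 14.3 against 31.5 ± 6.3 (1.89, edgeR adjusted p = 2.27e-13). In TH+ against TH- cells, 33 of the 42 genes passed the filter and 0 were called by edgeR or DESeq2.

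**Figure D4:**
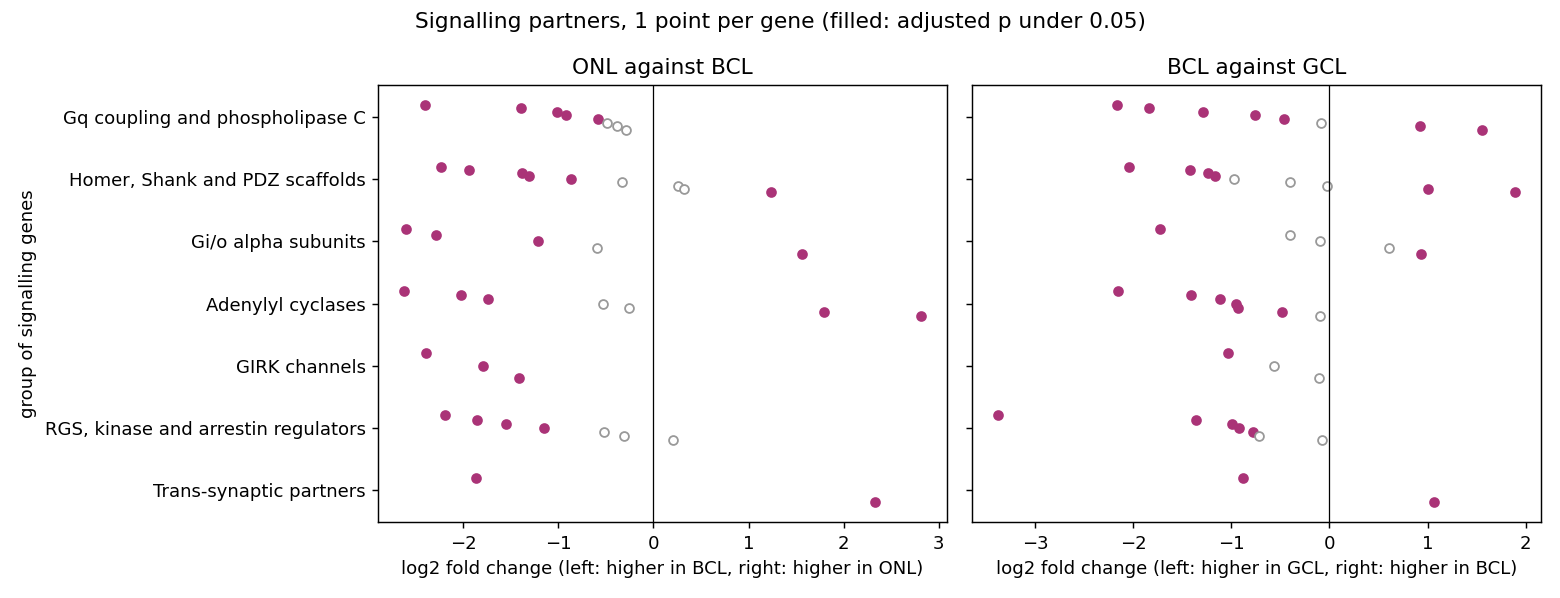
Log2 fold change (horizontal axis, edgeR) of the 41 signalling genes tested, 1 point per gene, by group of genes (vertical axis), for the ONL against the BCL and for the BCL against the GCL. Filled points have an adjusted p under 0.05: 24 lie on the BCL side and 5 on the ONL side in the first panel, and 23 on the GCL side and 6 on the BCL side in the second.

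The genes most like each member were found from the Pearson correlation of log2(CPM + 1) over the 12 layer libraries, among genes with at least 60 UMIs. The points share layers, sections and depth, so these values are descriptions. Nearest to Grm5 were Prrc2b, Arhgap31 and Gpr37 (r = 0.986, 0.986 and 0.983). Gpr37 stood at 319 CPM in the BCL, 69.6 in the GCL and 28.6 in the ONL, and Prrc2b at 1648.5, 1037.8 and 873. A high r does not mean a difference of like size. Nearest to Grm4 were Limk1, Cpeb2 and Ptprn2 (r = 0.980, 0.979 and 0.978), and Ptprn2 stood at 497 in the GCL, 105 in the BCL and 45.7 in the ONL. For Grm3 they were Isl2, Micos10 and Cgnl1 (r = 0.929, 0.927 and 0.917). Isl2, a transcription factor of ganglion cells, stood at 48.9 in the GCL, 5.05 in the BCL and 3.12 in the ONL. Micos10 stood at 38.7 in the GCL, 27.5 in the BCL and 26.8 in the ONL. Grm2 had Ptpre, Fbxo2 and Fzd1 (r = 0.968, 0.951 and 0.943), Grm7 had Plppr4, Skp1 and Bcl11a (r = 0.970, 0.958 and 0.945), and Grm8 had Clstn1, Coro6 and Fbxl2 (r = 0.938, 0.935 and 0.928).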

How the data were processed

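The deposited counts are UMIs per gene, whole numbers without normalization. The authors took UMIs and barcodes with UMI-tools 1.1.1, mapped reads with STAR 2.7.9a to mm39 and GENCODE genes, dropped multimapped reads, used featureCounts over exons and collapsed UMIs per gene. Light can scatter beyond a mask, so some cDNA of neighbouring cells may carry a barcode, and its share was not measured here. The 6 members, the signalling list, the marker lists and the genes named (the 2 per direction with the smallest adjusted p and the same direction in every section) were chosen with earlier results of these data known.

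The layers (12 libraries) and the amacrine cells (10 libraries) were each fitted once with the quasi-likelihood test of edgeR 4.0.16 (R 4.3.3), with TMM scaling, a low-count filter (the CPM of 3 UMIs in a library of median depth, reached in as many libraries as a group holds, and 10 UMIs overall), and Benjamini-Hochberg adjustment over all genes tested. The SE was taken from the fold change and its F statistic. The alternative test was that of DESeq2 1.42.0. The common biological coefficient of variation was 9.165% in the layers and 16.05% in the amacrine cells. The edgeR fit was also run on simulated counts, whose outcome is not used here. Per the labels, libraries of a number come from the same section, which pairs them. Their deviations from group means correlated at 0.0116 to 0.0493 in the layers and at 0.0287 to 0.257 in the amacrine cells. The pooled layer library, the deeper culture run and the human genes were not used here. Exact tests and intervals used scipy 1.17.1.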

Additional observations from a re-analysis of the deposited data

Results flagged for a closer look

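Grm3 in the BCL was marked because section 3, at 10.2 CPM, stood apart from the other 3 sections, which had none. It held 2 UMIs. Of the 30 combinations of member and group examined, 1 was marked. The rule sets the gap to the nearest library against the range, which gives 1.0 whenever 1 library holds all UMIs. A chance rate of 1 in 20 does not hold for such counts.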

How the results depend on the processing

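With Grm3 left aside, the count of members called was the same under DESeq2, RLE scaling, no low-count filter, the section as a replicate block and without mitochondrially encoded genes: 5 between ONL and GCL, 4 between BCL and GCL, 2 between ONL and BCL and 0 between TH+ and TH-. The default filter of edgeR removed Grm3 from the layers, and those counts stayed at 5, 4 and 2. It also removed all 5 tested members from the amacrine fit. Leaving out each section in turn gave 1 to 2 members between ONL and BCL, 4 to 5 between BCL and GCL, 5 between ONL and GCL and 0 between TH+ and TH-. The fitted Grm3 value between ONL and BCL, which rests on at most 2 UMIs per library and is no usable fold change, ran from -1.72 to 2.53 as sections were left out. With Grm3 left aside, no refitted member fold change reversed its direction. Only Grm7 changed its side of the threshold, in 1 refit to a call and in 2 refits away from a call. Mean levels moved by less than their SD in 191 cases and by more in 1, Grm7 in the GCL, which went from 58.7 to 64.6 CPM when mitochondrially encoded genes were taken out of the total. Over all genes, the amacrine fit called 50 genes, 66 without a filter (34 higher in TH+ and 32 higher in TH- cells) and 148 with the block. With a section left out, it called 29 (without section 3) to 73 (without section 2). Of these, 1 to 22 were higher in TH- cells, against 5 with all sections. Depth limits the precision of all 6 genes in TH+ cells, where 1 UMI is worth 11.4 to 33.0 CPM.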
